A study of Mus musculus with 4 samples.

Results

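The 77 rows described here are the abundant long non-coding RNAs (lncRNAs) without a gene name in RNA sequenced from the exosomes that rat mesenchymal stem cells (MSCs) of the bone marrow release in culture. They were taken from the 42977 rows of the gene table by 3 criteria: a gene type of lncRNA or lincRNA (a lncRNA that lies between genes), an identifier that begins with LOC, RGD or ENSRNOG in place of a symbol, and a high level. High meant a mean of at least 20 RPKM (reads scaled by transcript length and by the library's total gene count) over the 4 libraries and at least 20 counts in each library. Of the 10073 uncharacterised lncRNA rows in the table, 9996 fell outside these limits. The members comprised 53 LOC rows of type lncRNA and 24 ENSRNOG rows of type lincRNA, with 0 RGD rows. The members were thus chosen by their measured levels, so the levels below are a description. The difference between the groups was not used in the choice, except that the count minimum left out any row close to 0 in 1 library.

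All cells came from the marrow of male SD rats aged 6 to 8 weeks and were used at passages 3 to 4. Control cells received DMSO, the drug's solvent, and gave the 2 libraries named MSC-Exo. Cells pretreated with 1 µmol/L atorvastatin (ATV) gave the 2 named MSCATV-Exo. The labels give the length of the pretreatment both as 24 h and as 48 h. Exosomes were taken from 200 ml of conditioned medium per sample, and no separate animals or cultures are named behind the libraries of a group, so p-values measure only the spread between these libraries, which may be technical.

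Long non-coding RNAs are transcripts that are processed much like messenger RNAs but carry no long open reading frame. Some act in the nucleus on chromatin or splicing, others bind proteins or microRNAs in the cytoplasm, and most annotated ones have no known role. Exosomes are small vesicles of endosomal origin that carry RNA, often fragmented and rich in structural RNAs, from the releasing cell to others. Atorvastatin inhibits HMG-CoA reductase, the rate-limiting enzyme of cholesterol synthesis.

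Total gene counts ranged from 5350295 to 5947020 per library. The row Rn45s, the ribosomal RNA precursor, took 16.4% to 19.1% of them, highest in MSCATV-Exo replicate 1. Of 13 MSC marker names 12 were found, and the other, Cd29, is a second name of Itgb1, which was found. Their summed level was 315 to 352 RPKM, of which Vim alone made up 187 to 225 RPKM. Col1a2 was listed at 0 in every library. Summed levels were 39.7 to 55.1 RPKM for 9 leukocyte markers, lower in both MSCATV-Exo libraries. They were 18.9 to 26.4 RPKM for 4 endothelial markers, also lower in both, and 9.08 to 17.9 for 4 erythroid, 13.8 to 22.6 for 3 adipocyte and 15.4 to 16.3 for 3 osteoblast markers. The 6 exosome markers summed to 41.4 to 56.4 RPKM, higher in both MSCATV-Exo libraries. Single markers did not all follow these sums. The exosome marker Cd63 was highest in MSC-Exo replicate 1, at 20.5 RPKM, and Tsg101 reached 15.6 RPKM in MSCATV-Exo replicate 2 only. The leukocyte marker Itgam and the endothelial marker Vwf were highest in MSCATV-Exo replicate 2, at 5.87 and 7.96 RPKM. The part of these cell types in the results below was not tested. In RNA from pooled vesicles, fewer vesicles that carry a transcript and less of it per vesicle cannot be told apart.

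The level of the 77 members fell off steeply from a few very abundant rows. The median member had 42.7 RPKM, 3 members had at least 1000 RPKM, 12 had at least 100 and 26 had less than 30. The 3 most abundant alone took 44.2% to 46.5% of the members' counts in each library. The members together held 15.8% to 17.3% of all counts on uncharacterised lncRNAs and 1.33% to 1.47% of the gene table. For comparison, the median was 3.50 RPKM for the other uncharacterised lncRNAs and 3.78 RPKM for the 52 lncRNA rows that carry a name. Length, which the choice did not use directly, was alike, with a median of 1083 bases for members and 1086 for the other uncharacterised rows. By strand, 35 members were annotated on the plus and 42 on the minus strand.

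**Figure D1:**
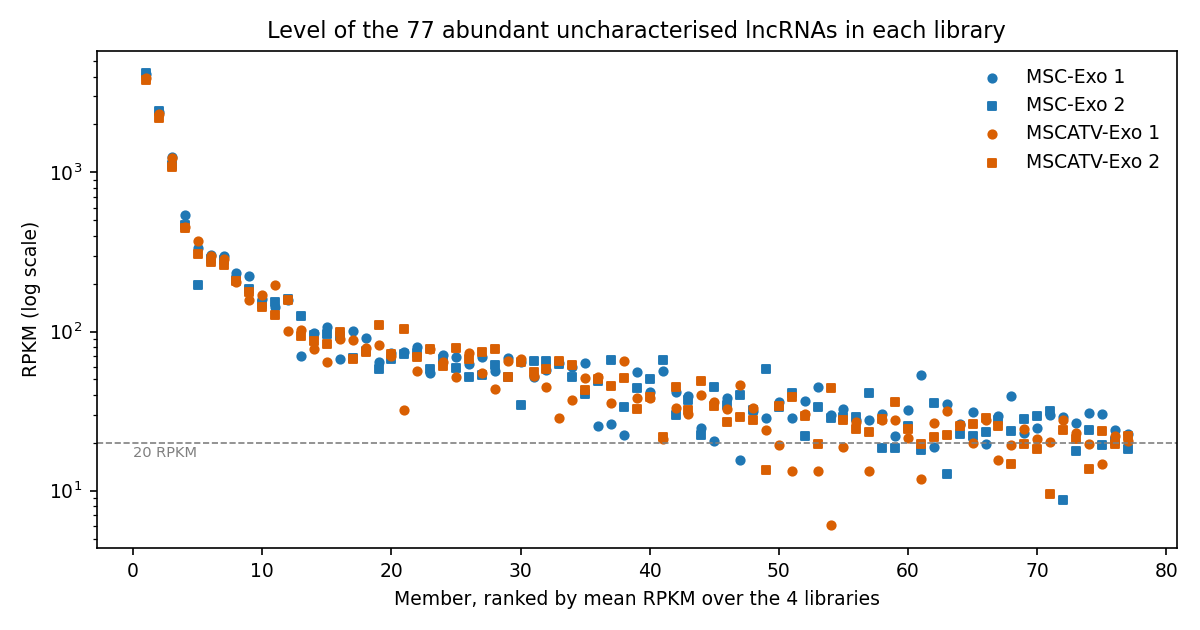
Level of each member (y axis, RPKM on a log scale) in the 4 libraries, with members ranked by mean level on the x axis; blue points are MSC-Exo and orange MSCATV-Exo, with circles for replicate 1 and squares for replicate 2, and the dashed line marks 20 RPKM. The 3 members above 1000 RPKM stand apart, and the 4 points of a member spread more widely towards the low end.

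The most abundant member, ENSRNOG00000057291, lies on the plus strand at chr15:87540751-87561581 of the rat build rn6 (Rnor_6.0), which holds for all coordinates here. It had 4160 and 4188 RPKM in the MSC-Exo libraries and 3941 and 3815 in the MSCATV-Exo libraries. It ranked at place 6 of the whole gene table by mean RPKM, at 4026, with only 940 bases of transcript. Its span falls within the annotated span of Mycbp2, a ubiquitin ligase gene on the opposite strand that had a mean of 1.86 RPKM. The second, ENSRNOG00000053868 (chr15:19068083-19069038, plus strand), had 2404 and 2417 RPKM untreated and 2311 and 2210 treated. It overlaps no other row and its nearest named neighbour is Ptgdrl, a prostaglandin D2 receptor gene 126568 bases away. On RPKM, which is scaled to the library total, both members were slightly lower in the treated pair.

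With normalisation by TMM factors, which correct the library totals for a few dominant transcripts, the group means were level. ENSRNOG00000057291 had 3808 ± 57.5 CPM (counts scaled to a common library total; SD, n = 2) untreated and 3806 ± 320 treated. ENSRNOG00000053868 had 1746 ± 25.04 and 1761 ± 163 CPM. The treated libraries of both members lay on either side of the untreated mean, so the groups overlapped. The log2 fold changes, MSCATV-Exo over MSC-Exo, were -0.00073 with an SE of 0.093 and 0.013 with an SE of 0.12, and their sign depended on the scaling.

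The third, LOC108349490 (chr1:11935908-11937275, plus strand), had 1241, 1116, 1225 and 1082 RPKM. Here and below, 4 values stand in the order of both MSC-Exo replicates, then both MSCATV-Exo replicates. The nearby member LOC108349491, on the minus strand at chr1:11949546-11957618, had 232, 210, 206 and 208 RPKM. Both overlapped between groups in CPM, and no protein-coding row lay between them. The short ENSRNOG00000062265 (chr11:60451526-60451778, plus strand, 253 bases) had 541, 469, 452 and 444 RPKM. It sits between Cd200, an immunoregulatory surface protein gene, and Btla, a lymphocyte inhibitory receptor gene, which had 1.96 and 2.20 RPKM.

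Rows ENSRNOG00000059013 (chr4:77413672-77446624) and LOC108350702 (chr4:77413803-77452236) are 2 annotations of 1 locus on the same strand. The first had 3604, 3412, 3974 and 3426 counts and the second 3933, 3749, 4167 and 3612. Both held mean levels close to each other, 289 and 281 RPKM, and the counts of one cannot be separated from those of the other. The locus lies between Ezh2, a histone methyltransferase gene, and Pdia4, a protein disulphide isomerase gene, a stretch that in human holds the genes of the small Y RNAs.

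LOC108353231 (chr20:27460688-27463657, plus strand), between the DNA demethylase gene Tet1 and Rwdd1, had 3163, 2611, 2468 and 2606 counts. Both treated values were below both untreated ones, narrowly, with 523 ± 65.7 CPM (SD, n = 2) untreated and 458 ± 9.17 treated. LOC103690993 (chr1:55653978-55655560, minus strand) had 812, 758, 958 and 758 counts. It overlaps the member LOC102556502 on the other strand and had 142 ± 5.53 CPM untreated and 155 ± 28.4 treated, with overlapping groups.

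LOC108352752 (chr14:46580509-46581100, plus strand) had the largest fold change of the 10 most abundant members, with a mean CPM 1.38 times as high in MSCATV-Exo. It had 839, 486, 1023 and 804 counts, so that MSC-Exo replicate 2 was low and MSC-Exo replicate 1 lay above MSCATV-Exo replicate 2 in CPM. The log2 fold change was 0.46 with an SE of 0.28, at an adjusted p of 1.00 in edgeR's quasi-likelihood test with Benjamini-Hochberg adjustment. The protein-coding row LOC108352751, described as S-antigen protein-like, covers 296 bases of it on the other strand and had 3072, 2539, 3777 and 3121 counts. A misc_RNA row of 87 bases, ENSRNOG00000052311, lies inside it with 155, 64, 138 and 143 counts. The member ends 62.1 kb before Rn45s, which took 16.5%, 16.4%, 19.1% and 16.7% of the gene counts. MSC-Exo replicate 2 was lowest and MSCATV-Exo replicate 1 highest of the 4 in the member, in LOC108352751 and in the Rn45s share. The part of these neighbours in the member's value was not tested.

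At the lower limit, ENSRNOG00000058241 (21.6 RPKM; 229, 195, 234 and 194 counts) and LOC108351423 (20.9 RPKM; 909, 733, 904 and 916 counts) were the members just inside. LOC691764 (20.0 RPKM; 128, 106, 195 and 91 counts) and LOC103695239 (19.2 RPKM; 71, 45, 80 and 53 counts) were just outside, the former by less than rounding shows. Of 79 lncRNA rows with a mean of at least 20 RPKM, the other 2 were H19, an imprinted lncRNA that has a name, and LOC103691538. The latter had 54, 1, 21 and 34 counts and so failed the count minimum in MSC-Exo replicate 2. A limit of 10 RPKM would have given 162 members and one of 40 RPKM 41.

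The deposited table of non-coding transcripts listed 109 transcripts of the 77 members. For 65 members it held 1 transcript whose counts were those of the gene row in all 4 libraries, so it is a second listing of the same reads. Another 12 had 2 or more transcripts, up to 13 for LOC102556873. In LOC102548522, a 574-base transcript that makes up 14.7% of the gene's counted length held 78.6% to 89.1% of its counts. In LOC108352959, the 1427-base transcript held all counts in every library and the 1605-base one 0.797%, 1.07%, 1.62% and 2.97%. These shares show that reads on LOC102548522 were concentrated in a short stretch in all 4 libraries. Transcripts that share exons share reads here, so the shares of a gene do not add up to its total.

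The members lay unevenly over the genome. Chromosome 1 held 20 members, 26.0% of them, beside 10.9% of all uncharacterised lncRNA rows. Chromosome 19 held 12, or 15.6%, beside 3.32%. Chromosome 15 held 7, or 9.09%, beside 4.29%. Chromosome 2, with 8.52% of the uncharacterised rows, held 3 members. These shares are a description of an annotation in which neighbouring rows can share reads and sequence, and carry no test.

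**Figure D2:**
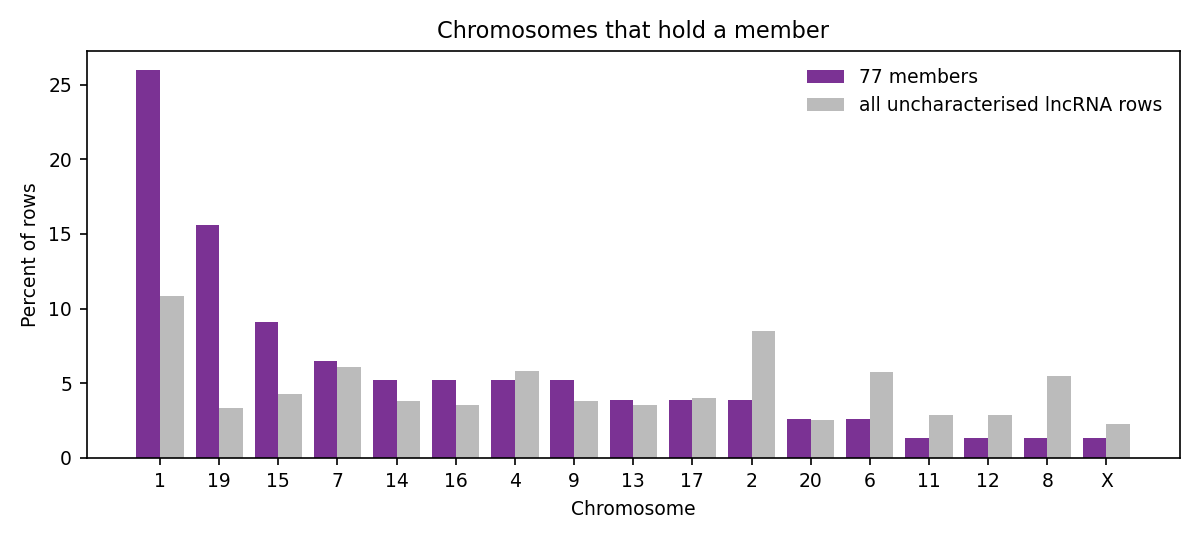
Percent of the 77 members (purple) and of all 10073 uncharacterised lncRNA rows (grey) on each chromosome that holds a member. Chromosomes 1 and 19 hold 26.0% and 15.6% of the members but 10.9% and 3.32% of the rows.

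Of the 77 members, 43 lay within 1 Mb of another member, in 12 runs. The run with the most members, at chr1:54126216-56038201, held 10 members among 30 uncharacterised lncRNA rows. It included LOC103690993, LOC102556502, LOC102546709 and LOC102556873, and lies among sperm motility kinase and vomeronasal receptor rows. A run at chr19:26267259-29002438 held 9 members of 30 such rows, led by ENSRNOG00000061812 with 155 RPKM. At chr16:21721123-22123650 all 4 of 4 uncharacterised lncRNA rows were members, and the 4 protein-coding rows there had a median of 47.0 RPKM. Of the chromosome 1 run 3 rows stood higher with treatment and 7 lower, from -0.32 to 0.57 on the log2 scale. In the chromosome 19 run 6 were higher and 3 lower, from -0.39 to 0.31. Members of both runs therefore went in both directions, and neither edgeR nor DESeq2 called any of them.

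A compact run of 3 lincRNA rows, ENSRNOG00000062155, ENSRNOG00000062127 and ENSRNOG00000062158, filled chr1:221151827-221158792 on the minus strand. The table gives these 3 rows no symbol. The 3 rows differed from one another in the comparison below.

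Many members share their position with another annotated row, and the library kit does not mark the strand, so reads of a shared stretch cannot be told apart. Overlap was taken from whole annotated spans, introns included, so it does not by itself show that reads are shared. Some of these spans are very wide. Vom2r7, with a mean of 1.37 RPKM, is annotated over 32153819 bases, and Mycbp2, with 1.86 RPKM, over 6496085 bases. Of the 77, 42 overlapped another row and 35 did not, and for 34 the overlap covered at least 50% of the member's span. The overlap was on the same strand for 25. It was with a protein-coding row for 31, of which 15 were overlapped by such rows on the opposite strand alone. In 4 cases the protein-coding row had the higher mean RPKM. Of the 42, 12 overlapped another member, among them LOC108352959, which lies within ENSRNOG00000057291 on the same strand with 144 RPKM.

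Between the groups, the 77 members as a set were level. In edgeR's quasi-likelihood test over 33480 genes, 0 genes passed an adjusted p under 0.05 (percent called 0), and 0 members did. At an unadjusted p under 0.05 edgeR had 1236 genes, 3.69% of those tested (1.71% higher and 1.98% lower), and limma on log2 RPKM called 0 genes. Of the members, 8 were under that unadjusted p, 4 higher and 4 lower in MSCATV-Exo. By sign, 36 members were higher and 41 lower, and their log2 fold changes had a median of -0.0044. Over all genes tested the median was -0.0098, with 49.4% higher and 50.6% lower. With RLE factors 39 members were higher, and without MSCATV-Exo replicate 2 45 were, so that the majority changes sides. With library totals in place of TMM factors the median of all genes moved from -0.01 to -0.11. That of the members moved to -0.11 as well, with 27 of 77 higher.

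The 2 libraries of each group did not overlap with those of the other for 29 members, 12 higher and 17 lower. This is 37.7% of members, beside 33.5% of all genes tested (16.1% higher and 17.4% lower). The 342 protein-coding genes past the same level limits had 260 higher and 82 lower, with a median of 0.24 on the log2 scale and 51.5% free of overlap. Their count with library totals was 226 higher. The 7178 other uncharacterised lncRNAs tested had a median of -0.06, with 46.9% higher. The median of the members was thus nearer to that of the other uncharacterised lncRNAs than to that of the equally abundant protein-coding rows. This is a description, and the difference between the sets was not tested.

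**Figure D3:**
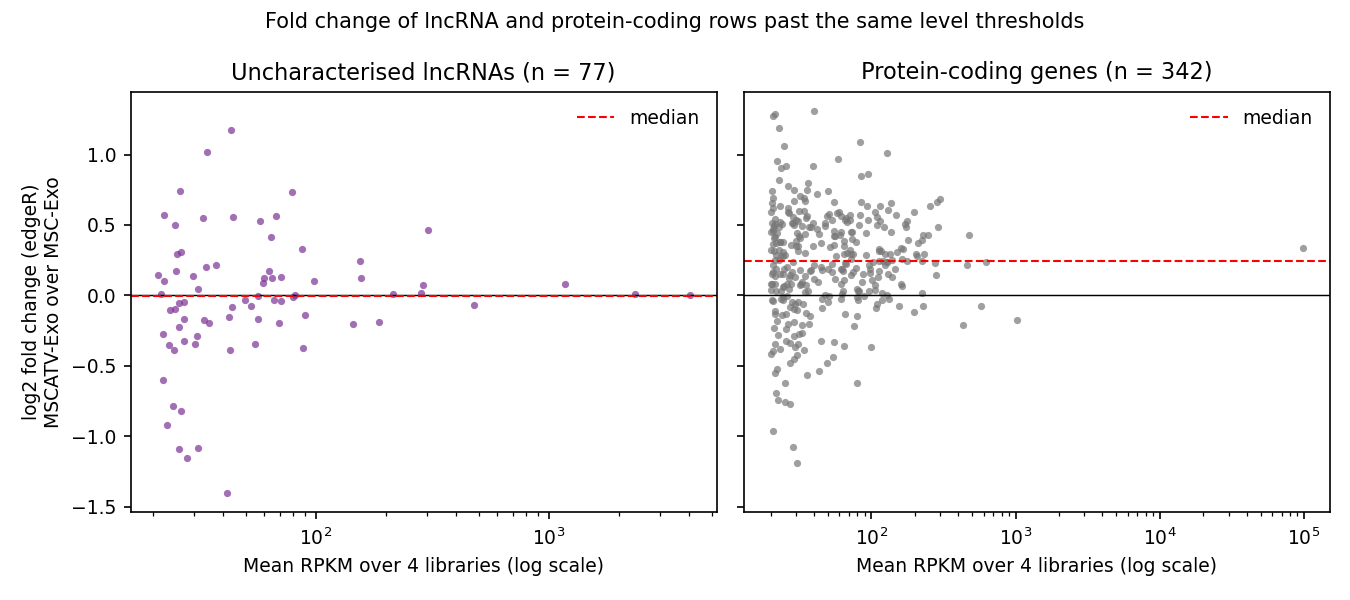
Log2 fold change (y axis, MSCATV-Exo over MSC-Exo, edgeR) against mean level (x axis, RPKM on a log scale) for the 77 members on the left and the 342 protein-coding genes past the same limits on the right; each point is 1 gene and the red dashed line the median. The members centre on 0 and the protein-coding genes on 0.24, and the members beyond 1 in either direction all lie below 100 RPKM.

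DESeq2, the alternative count test, called 95 genes at an adjusted p under 0.05, 0.139% of those tested higher and 0.136% lower. Among them were 3 members, LOC103694148 and ENSRNOG00000057498 lower and LOC108350691 higher in MSCATV-Exo. None of the 3 was called by edgeR.

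LOC103694148 had the largest fold change of all members. This 754-base row on the minus strand of chr17:89405937-89415006 had 228, 266, 95 and 92 counts, or 56.5, 65.9, 21.2 and 21.8 RPKM. Both treated libraries were well below both untreated ones, and replicates differed little. It had 44.8 ± 5.31 CPM (SD, n = 2) untreated and 16.9 ± 0.695 treated, or -1.41 as log2 fold change with an SE of 0.34. The adjusted p was 1.00 in edgeR's quasi-likelihood test (unadjusted 0.0019) and 0.011 in DESeq2. It overlaps no other row and lies 9192 bases from LOC108353138, a sperm motility kinase X-like gene with 79.6 RPKM. Leaving out each library in turn gave -1.53 to -1.28. Its shorter transcript of 594 bases held 210, 236, 78 and 81 counts and so follows the gene row, whose reads it shares.

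ENSRNOG00000057498 (chr6:44006624-44009412, minus strand) had 404, 303, 133 and 186 counts. The groups did not overlap, at 64.0 ± 12.3 CPM (SD, n = 2) untreated and 28.8 ± 6.24 treated. The log2 fold change was -1.15 with an SE of 0.32, with an adjusted p of 1.00 in edgeR's quasi-likelihood test and 0.040 in DESeq2. This member lies 460 bases from Mboat2, a phospholipid acyltransferase gene. LOC103692612, described as skin secretory protein xP2-like, covers 79.1% of its span on the same strand but had only 43, 33, 55 and 43 counts.

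The remaining members with a low p and a lower treated level had wider replicates. LOC108353188 (chr19:246237-248769) had 223, 329, 119 and 196 counts and a log2 fold change of -0.82 with an SE of 0.36. ENSRNOG00000054362 (chr9:9086130-9104818) had 240, 255, 181 and 80 counts and -0.92 with an SE of 0.41. Here MSCATV-Exo replicate 2 set the size of the difference: without it the log2 fold change was -0.43. LOC108349484 (chr1:6375040-6380010), which neighbours the utrophin gene Utrn, had 235, 141, 127 and 91 counts and -0.79 with an SE of 0.40. In all 3 the groups did not overlap, though the gap between them was narrow.

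LOC108351870 and ENSRNOG00000051175 were beyond -1 on the log2 scale on the strength of single libraries. LOC108351870 (chr9:4590276-4612833) had 235, 80, 58 and 90 counts. Only MSC-Exo replicate 1 was high and the groups overlapped, and without that library the log2 fold change went from -1.09 to -0.14. It lies wholly within RGD1562392, a sulfotransferase-like row on the same strand. ENSRNOG00000051175 (chrX:73081934-73087400, 306 bases) had 47, 95, 44 and 23 counts and -1.08 with an SE of 0.71. Its groups did not overlap, though narrowly, with 28.7 RPKM in MSC-Exo replicate 1 and 24.2 in MSCATV-Exo replicate 1. Its untreated libraries differed 2-fold, and without MSC-Exo replicate 2 the value was -0.48. The protein-coding rows LOC102547119 and LOC501389 cover 48.4% and 24.2% of its span on the same strand. LOC102547119 had 903, 912, 889 and 943 counts, and LOC501389 had 253, 335, 232 and 174, the same order of libraries as the member. The part of these rows in the member's value was not tested.

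Of the members that were higher in MSCATV-Exo, LOC108350691 had the smallest p. It lies on the minus strand at chr4:62290375-62293099 and had 582, 525, 821 and 1029 counts. Both treated libraries exceeded both untreated ones, at 100 ± 6.33 CPM (SD, n = 2) against 167 ± 23.5. The log2 fold change was 0.73 with an SE of 0.23, with an adjusted p of 1.00 in edgeR's quasi-likelihood test (unadjusted 0.0090) and 0.036 in DESeq2. On the opposite strand it overlaps Cald1, the gene of the actin-binding protein caldesmon, over 1001 bases, 36.7% of the member's span. Cald1 had 2972, 2861, 4332 and 4883 counts and a log2 fold change of 0.65 with an SE of 0.15. The 2 rows had the same order of groups, and Cald1 was the more abundant at 136 RPKM beside 78.7. Reads of the shared stretch cannot be assigned to a strand, and their part in the member's value was not tested.

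**Figure D4:**
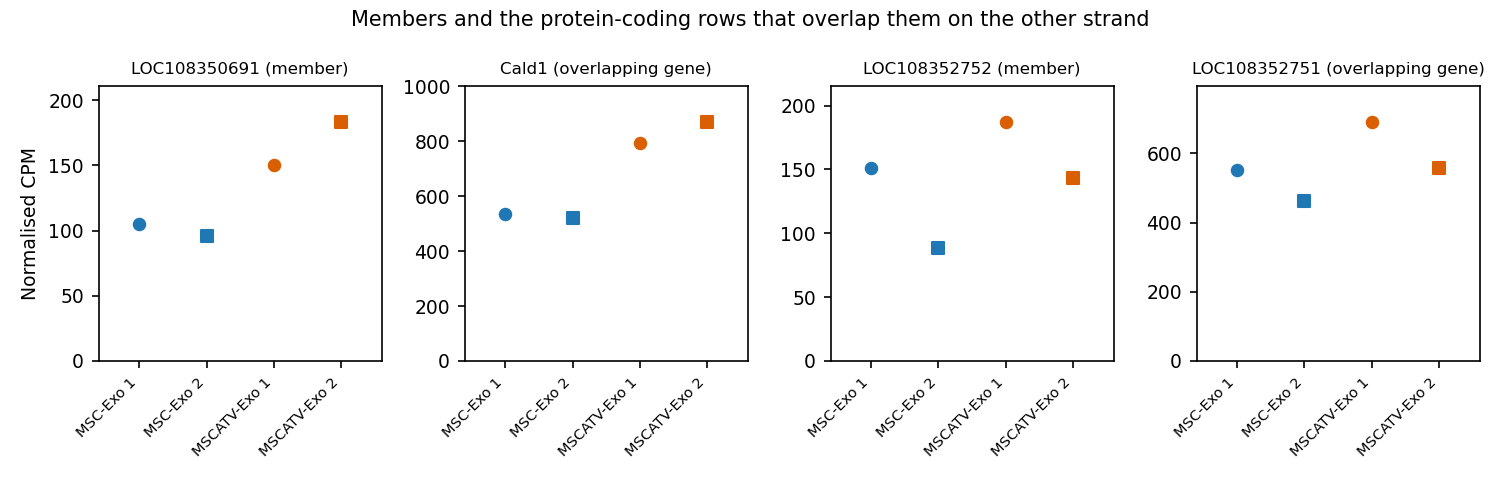
Normalised CPM (y axis from 0) in each library for LOC108350691 and Cald1, which overlap on opposite strands, and for LOC108352752 and LOC108352751, which also do; blue is MSC-Exo and orange MSCATV-Exo, with circles for replicate 1 and squares for replicate 2. LOC108350691 and Cald1 are both higher in the 2 treated libraries, and MSC-Exo replicate 2 is the lowest point of the other pair.

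In the compact run of 3 lincRNA rows on chromosome 1, 2 rows were higher in MSCATV-Exo. ENSRNOG00000062158 had 83, 125, 271 and 200 counts. This was 18.9 ± 5.57 CPM (SD, n = 2) against 42.6 ± 9.86, a log2 fold change of 1.17 with an SE of 0.38. ENSRNOG00000062127 had 279, 232, 386 and 474 counts, and 0.74 with an SE of 0.28. In both, each treated library was above each untreated one. The third row, ENSRNOG00000062155, had 71, 135, 113 and 86 counts, with overlapping groups and -0.06 with an SE of 0.48. For all 3 the adjusted p was 1.00 in edgeR's quasi-likelihood test, and DESeq2 gave 0.14 for ENSRNOG00000062158 and 0.18 for ENSRNOG00000062127.

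LOC108351947 (chr9:79573763-79578419, minus strand), between the melanoregulin gene Mreg and Pecr, a peroxisomal reductase gene, had 461, 487, 725 and 683 counts. Replicates lay close together and the groups were separate, at 86.0 ± 4.18 CPM (SD, n = 2) and 127 ± 7.71. The log2 fold change of 0.57 with an SE of 0.23 had an adjusted p of 1.00 in edgeR's quasi-likelihood test, and no other row overlaps it. LOC103693918 (chr16:21723518-21725418, 334 bases) had 44, 40, 79 and 92 counts and a log2 fold change of 1.02 with an SE of 0.57. It lies wholly within LOC102551960, a member on the other strand with 392, 383, 188 and 574 counts. The treated libraries of LOC102551960 lay on both sides of the untreated ones, unlike those of LOC103693918.

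**Figure D5:**
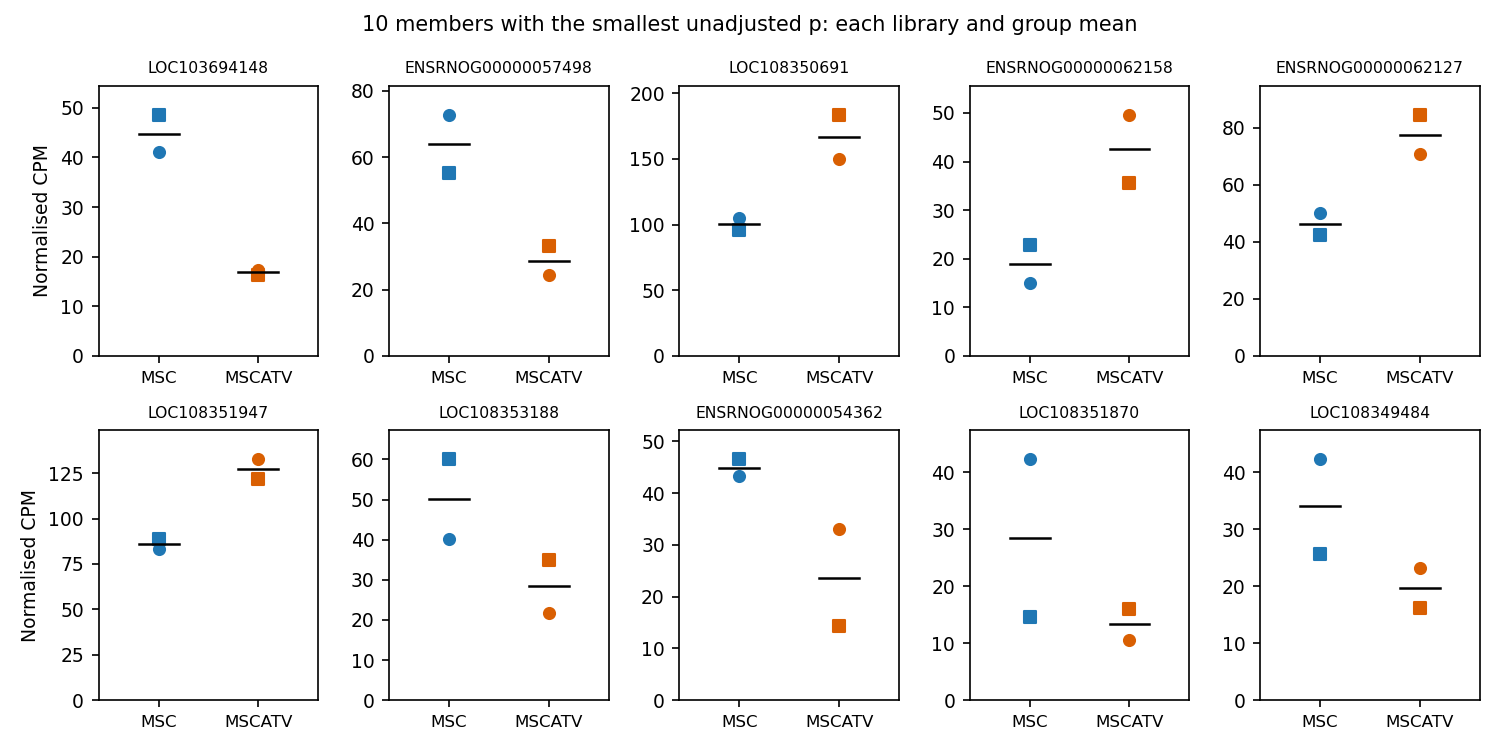
Normalised CPM (y axis from 0) of the 10 members with the smallest unadjusted p; blue points are the 2 MSC-Exo libraries, orange points the 2 MSCATV-Exo libraries, circles replicate 1, squares replicate 2, and black lines the group means. The groups are apart in all panels but that of LOC108351870, where MSC-Exo replicate 1 alone is high.

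Replicates of most members lay close together. The median fold between the 2 libraries of a group was 1.19 in MSC-Exo and 1.23 in MSCATV-Exo, beside 1.48 and 1.58 over all genes tested, which are mostly less abundant. For the 342 protein-coding genes past the same level limits it was 1.22 and 1.17, so close replicates were not particular to the members. In MSC-Exo 59 members and in MSCATV-Exo 60 differed by less than 1.5-fold, while 7 and 5 differed by 2-fold or more. The widest was ENSRNOG00000060858, with 97, 94, 22 and 150 counts. In MSC-Exo, LOC108349806 had 220 and 67 counts and LOC108351870 had 235 and 80. LOC102551960 had 188 and 574 in MSCATV-Exo. Within these pairs, MSCATV-Exo replicate 1 was the lower library in ENSRNOG00000060858 and LOC102551960, and MSC-Exo replicate 2 in the other 2. In LOC108351870, however, MSC-Exo replicate 2 lay between the treated libraries, at 58 and 90 counts, and MSC-Exo replicate 1 alone was high.

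In the authors' deposited table of 38021 rows, whose test is not stated, 38 of the 77 members had a q-value under 0.05. There 10 were higher in MSCATV-Exo and 28 lower, beside 12.4% and 21.9% of all its rows (34.3% in either direction). The 10 were LOC108350691, ENSRNOG00000062158, ENSRNOG00000062127, LOC108351947, LOC108352752, LOC103693918, LOC102556502, LOC108349806, ENSRNOG00000053011 and LOC108352881. Among the 77 members, the most negative log2 ratio in the authors' deposited table was that of LOC103694148, at -1.51, and the most positive that of ENSRNOG00000062158, at 1.07. For ENSRNOG00000057291 the authors' deposited table gives group means of 4174 and 3878 RPKM, a log2 ratio of -0.11 and a q-value of 1.6e-11. For ENSRNOG00000053868 the authors' deposited table gives 2411 and 2261 RPKM, -0.09 and a q-value of 0.00013. In edgeR, the adjusted p of both was 1.00.

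The other members with a q-value under 0.05 in the authors' deposited table were lower in MSCATV-Exo there. Beside those named so far (ENSRNOG00000057498, LOC108353231, ENSRNOG00000054362, LOC108353188, LOC108351870, LOC108349484, ENSRNOG00000051175, LOC108352959, LOC102556873 and LOC108350702), they included LOC102546709, LOC108353207, LOC108349805, LOC108353083, LOC103690988, LOC102552061, LOC103692748 and LOC102550762. LOC108353242, LOC102554296, LOC103694275, LOC108351680, LOC103690936, LOC103692743 and LOC102546375 complete the 28. In edgeR, LOC102550762 had 166, 130, 118 and 77 counts and -0.60 with an SE of 0.42, and LOC108353083 had 610, 553, 408 and 495 and -0.37 with an SE of 0.25. In both the groups did not overlap. LOC103690936 had 141, 203, 73 and 200 counts and LOC103692743 had 142, 141, 71 and 154, where MSCATV-Exo replicate 1 alone was low.

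Of 33 lncRNAs and related RNAs with known roles that were listed for comparison, 10 were found and 9 tested, 7 higher and 2 lower in MSCATV-Exo. EdgeR called 0 of them and DESeq2 called H19. H19 had 300, 216, 535 and 474 counts and 29.1 RPKM, below the members' median of 42.7. It was higher in both treated libraries, with a log2 fold change of 0.96 and an SE of 0.28.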

How the data were processed

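RNA from 4 exosome samples was made into libraries with the NEBNext Ultra RNA kit, per the labels' protocols, and these keep no strand. Reads were handled with TopHat2 and the rat build rn6 (Rnor_6.0), per the submitters' processing notes; the counter and annotation are not given in the sources used here. The samples are registered as mouse, but protocol, build and identifiers are of rat. The authors deposited read counts per gene and per non-coding transcript, and RPKM beside them, which for genes equalled counts over length and summed gene counts to within 0.00051%. The authors' deposited comparison table holds log2 ratios, p-values and q-values from a test that is not stated.

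The main test was the two-sided quasi-likelihood F test of edgeR 4.0.16 (R 4.3.3) after filterByExpr, with TMM factors and a call at an adjusted p under 0.05, over 33480 genes and 13128 transcripts, MSCATV-Exo against MSC-Exo. SE is that of the fit, and CPM uses the TMM factors. Gene totals of 5350295 to 5947020 counts put the floor of 3 counts at 0.535 to 0.549 CPM, which covers counting error alone, as PCR copies were not marked. Replicates differed by more than sampling noise (chi-square per gene 10.5 and 14.4) and were kept apart. Alternatives were DESeq2 1.42.0, RLE factors, library totals, no filter, a mean of 1 CPM, the replicate block, each library left out, no rRNA rows, limma 3.58.1 on log2(RPKM + 1) and log2(RPKM + 0.1), and other limits on level and overlap.

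Named members are the 10 of highest RPKM, the 10 of smallest unadjusted p, the 5 of largest fold change, those called by edgeR, DESeq2 or the authors' table, and the 2 on each side of the RPKM limit, with genes that overlap them. Others are named to describe runs, transcripts and replicates, chosen after their values were seen. The members and lists were chosen with earlier results of these data known. No sequences are printed, because the reference sequences at hand are mouse ones.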

Additional observations from a re-analysis of the deposited data

How the results depend on the processing

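There were 2 libraries a group, and the biological coefficient of variation was 0.559. EdgeR called 0 genes and 0 transcripts of the ncRNA table, but DESeq2 called 95 genes, 24 transcripts and 3 members, and without a filter on low counts edgeR called 8 genes and 7 transcripts. Leaving out each library in turn gave 1 to 168 genes and 0 to 69 transcripts, with the most calls without MSCATV-Exo replicate 2, and 0 members each time; a lone library is then assumed to vary like the other group. With the replicate number as a block edgeR called 4 genes, 2 transcripts and 0 members. The deviations of same-numbered libraries had a correlation of -0.00052 over all genes and 0.23 over genes of at least 20 RPKM. With 2 pairs and no label that ties the numbers to a shared source, it is not known whether same-numbered libraries share more than the number. The cause of these changes was not tested. A floor of 3 counts is 0.535 to 0.549 CPM, well below every member.

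The members' median log2 fold change of -0.0044 became -0.11 with library totals, -0.097 and -0.098 with limma on log2(RPKM + 1) and log2(RPKM + 0.1), and -0.049 to 0.076 when each library was left out. For the 35 members that overlap no other row, a choice made after seeing the data, it was -0.035 with 15 higher. Limits of 10 and 40 RPKM gave 162 and 41 members with 79 and 21 higher, and 25 of the 42 overlaps were on the same strand.

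Signs turned for members close to 0 and for some further from it. Among the latter were LOC108349806, LOC102554296 and LOC108351680, at 0.57, -0.29 and -0.27 in the main fit. The log2 fold changes in the other settings were as follows. DESeq2, RLE factors and leaving out rRNA rows gave 0.0019, 0.0039 and 0.0045 for ENSRNOG00000057291. Library totals gave -0.094 for ENSRNOG00000053868, -0.033 for LOC108349490, -0.035 for ENSRNOG00000059013, -0.094 for LOC108350702, -0.10 for LOC108349491 and -0.10 for ENSRNOG00000058241. Limma on log2(RPKM + 1) gave -0.093 for ENSRNOG00000053868, -0.032 for LOC108349490, -0.035 for ENSRNOG00000059013, -0.093 for LOC108350702, -0.095 for LOC108349491 and -0.092 for ENSRNOG00000058241. Limma on log2(RPKM + 0.1) gave -0.093 for ENSRNOG00000053868, -0.032 for LOC108349490, -0.035 for ENSRNOG00000059013, -0.093 for LOC108350702, -0.10 for LOC108349491 and -0.10 for ENSRNOG00000058241. Leaving out each library gave -0.088 to 0.087 for ENSRNOG00000057291, -0.084 to 0.11 for ENSRNOG00000053868, -0.081 to 0.23 for LOC108349490, -0.15 to 0.019 for ENSRNOG00000062265, -0.057 to 0.20 for ENSRNOG00000059013 and -0.11 to 0.14 for LOC108350702. It gave -0.050 to 0.069 for LOC108349491, -0.073 to 0.31 for LOC103690993, -0.15 to 0.16 for ENSRNOG00000058241, -0.48 to 0.033 for LOC108352959, -0.39 to 0.012 for LOC108353242 and -0.13 to 0.11 for LOC102556873. It gave -0.67 to 0.022 for LOC102554296, -0.038 to 1.65 for LOC108349806, -0.59 to 0.062 for LOC108351680, -1.22 to 0.19 for LOC103690936 and -0.98 to 0.10 for LOC103692743. Of the other values of named genes, 562 kept their direction and side of the threshold. LOC103694148, ENSRNOG00000057498, LOC108350691 and Cald1 passed it in DESeq2 but not in edgeR, as did H19. For sets, 51 values stayed within 1.5-fold of the main value, or for medians within 0.014, the replicate SD of the members' median log2 CPM. Another 28 did not. Direction was not part of that rule. The members' median was 0.00071 with RLE factors, 0.0026 with the replicate block and 0.00030 without rRNA rows.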

Other observations

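The descriptions of rows near the members often repeated a few words. The words sperm, spermatogenesis, Spetex and discs or disks large were picked after the descriptions had been read. They occur in the descriptions of 223 rows of the gene table. Of the members, 27 (35.1%) lay within 200 kb of such a row, beside 435 (4.35%) of the other uncharacterised lncRNAs. The 27 include LOC103690993, LOC102556502, LOC102546709 and ENSRNOG00000061812 of the 20 most abundant. Of the 27, 11 had a higher and 16 a lower value in MSCATV-Exo, and the median of their log2 fold changes was -0.098. Members of 1 run share their neighbours, so the 27 are not independent of each other, and how reads that match several copies of a family were counted is not given in the sources used here. No test was made of this pattern.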
